A study of Mus musculus with 8 samples.

Results

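The ribosome biogenesis factors described here are the genes that the KEGG column of the deposited tables assigns to ribosome biogenesis in eukaryotes. The assignment covered 76 of the 34745 genes in each table, and all 76 were protein coding in GENCODE release M21. The assignment uses no measured value, but the term was picked for description with earlier results of these data known, so shares over its genes are a description. The study sequenced RNA from crypts, the glands of the intestinal epithelium, isolated on day 5 from wild-type C57BL/6 mice. DSS+CA stands for dextran sulfate sodium given together with cholic acid and had 4 libraries. DSS stands for dextran sulfate sodium without cholic acid and also had 4 libraries. Dextran sulfate sodium is a sulfated polysaccharide that damages the intestinal epithelium and serves to model colitis, and cholic acid is a primary bile acid made in the liver. Both groups therefore received the injuring agent, and neither was an untreated control. The labels name no gut segment, dose or route, and they do not say whether replicates are separate animals, so p-values measure only the spread between these libraries, which may be technical.

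Ribosomes are assembled from ribosomal RNA and ribosomal proteins, starting in the nucleolus. RNA polymerase I makes a long precursor RNA, which small nucleolar ribonucleoprotein particles (snoRNPs) modify and which large protein complexes fold and cut. The small subunit forms in a particle built from the UTP-A, UTP-B, UTP-C and MPP10 complexes, while the large subunit matures through a chain of GTPases and ATPases before both leave the nucleus. The activity of this pathway is known to follow cell growth, and crypts hold the dividing cells of the intestinal lining.

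Total counts lay between 13334012 and 15953432 in DSS+CA and between 13499332 and 17973196 in DSS. Libraries differed in which gene lengths they covered: the harmonic mean length of the counted genes, weighted by count, was 1445 to 2412 bases in DSS+CA and 1423 to 2234 bases in DSS. Gene length here and below is the length implied by the deposited FPKM, which for some genes exceeds the locus. The shortest values belonged to DSS 2, DSS+CA 3 and DSS 3, so results are also given without these libraries where that matters. Mitochondrial genes took 9.72% to 20.5% of the counts in DSS+CA and 16.2% to 27.7% in DSS. The 7 epithelial markers, among them Epcam and the keratin genes Krt8 and Krt18, summed to 7192 to 9482 CPM in DSS+CA and 7279 to 9367 CPM in DSS, with 5 of 7 log2 fold changes above 0 (CPM, the counts-per-million scale, here and below with the TMM factors of edgeR unless said otherwise).

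Of the 76 ribosome biogenesis factors, 67 passed the filter for testing, a deposited FPKM of 1 or more in 4 or more of the 8 libraries. Their fitted log2 fold changes, DSS+CA over DSS, lay mostly on the positive side: 61 of the 67 were above 0, which is 91.0%, against 51.9% of all 9913 genes tested. The median was 0.29 on the log2 scale for the 67 factors and 0.02 for all tested genes, with a range of -0.96 to 0.90 among the factors. No single factor passed an adjusted p of 0.05 in edgeR's quasi-likelihood test with Benjamini-Hochberg adjustment over all tested genes, and the smallest adjusted p was 0.240, for Utp15. The same test called 0.131% of all tested genes, 0.0404% higher and 0.0908% lower in DSS+CA. At an unadjusted p under 0.05 the test gave 5 factors, all higher in DSS+CA, where it gave 2.97% of all tested genes higher and 7.82% in either direction. DESeq2 also called 0 factors. The factors' fold changes had a median SE of 0.35 on the log2 scale, between 0.26 and 0.88, so a change of the median size was smaller than a typical error. The members are not independent of each other, and no test was made of the list as a whole.

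**Figure D1:**
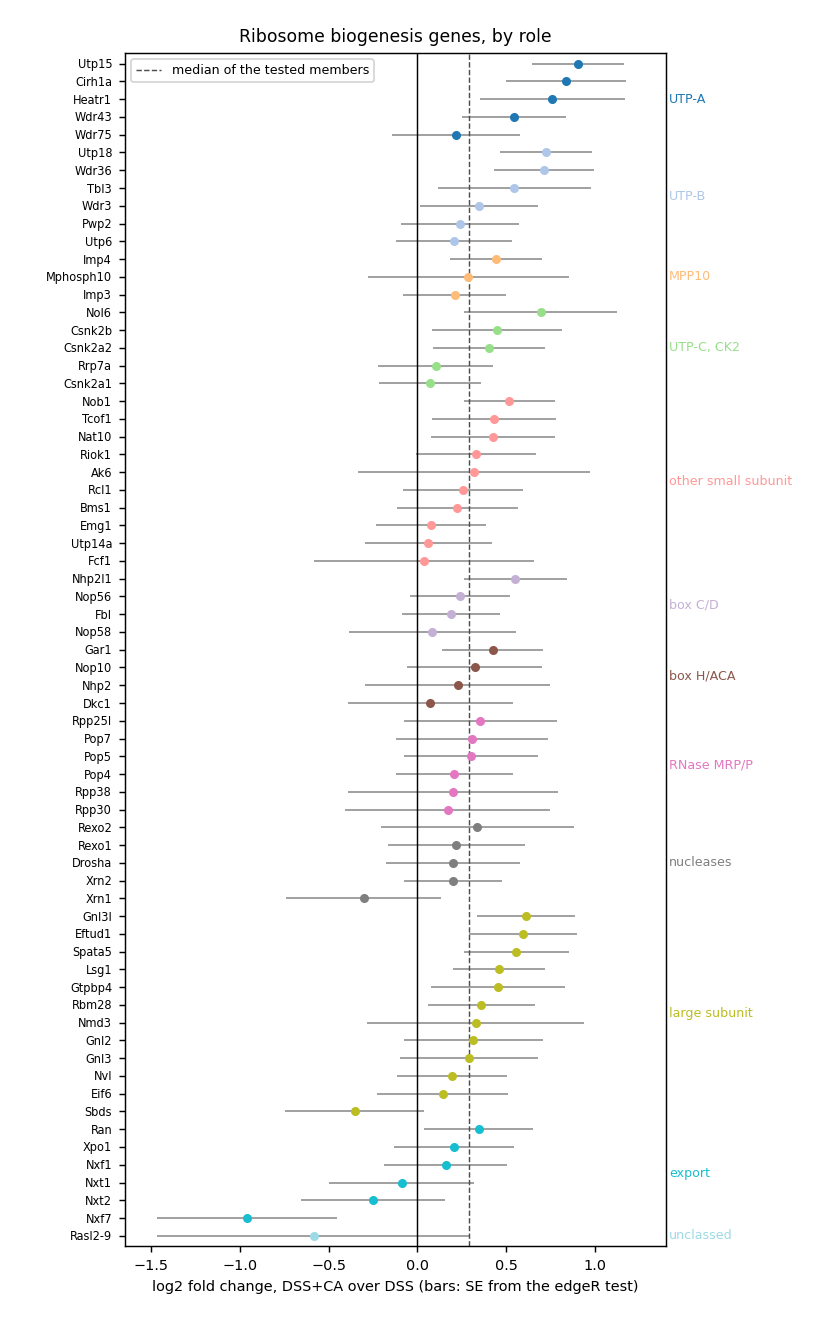
Log2 fold change, DSS+CA over DSS, of the 67 tested ribosome biogenesis factors (x axis), arranged by role (y axis) and coloured by role. Points are fitted values, bars are the SE from edgeR's test, and the dashed line is the median of 0.29. The UTP-A and UTP-B members reach furthest to the right, up to 0.90 for Utp15, and the export group holds the lowest value, -0.96 for Nxf7.

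Every DSS+CA library lay above every DSS library for 7 of the 67 factors, and no factor had the opposite order. Among all tested genes 3.24% had every DSS+CA library above every DSS library, and 2.81% had every one below. The 7 factors were Utp15 and Wdr43 of the UTP-A complex, Utp18 and Wdr36 of UTP-B, Nhp2l1 of the box C/D particles, the nuclease Nob1 and the large-subunit GTPase Lsg1. Such separation fixes the exact two-sided permutation test over the 70 assignments of 8 libraries at p = 0.0286, the smallest value it allows. For these 7 that p therefore adds nothing to the separation by which they were picked. With scaling by the size factors of DESeq2 the count was 6 of 67 (2.67% of all tested genes), and as CPM without scaling it was 8 (3.98%). Without DSS 2, DSS 3 and DSS+CA 3 it was 35, and 24.5% of all tested genes then separated in this direction among the 5 remaining libraries.

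**Figure D2:**
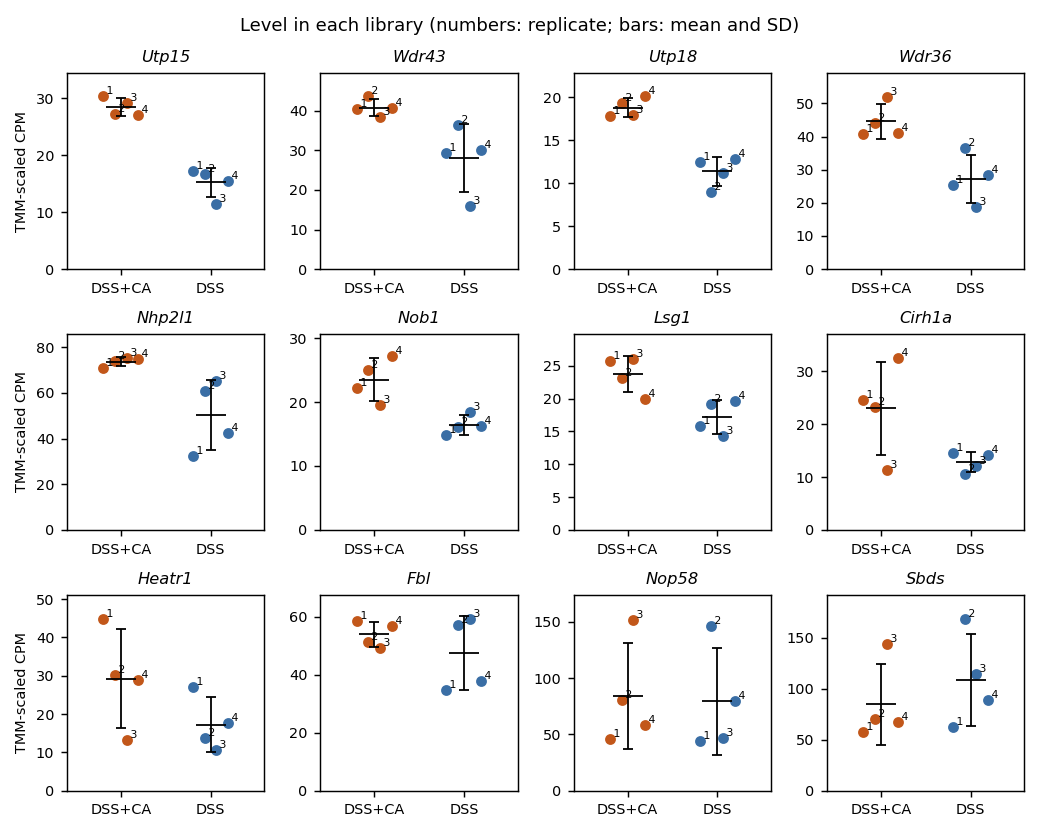
Level in each library (y axis, TMM-scaled CPM) of 12 ribosome biogenesis factors in DSS+CA and DSS. Points are libraries labelled by replicate number, and bars are mean and SD (n = 4 each). The first 7 panels are the factors whose groups did not overlap. In the last 5 (Cirh1a, Heatr1, Fbl, Nop58 and Sbds) the groups overlapped, and DSS+CA 3 or DSS 2 lies apart from its group in several of them.

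The sequence just upstream of these genes is shown for 6 of the 7, because they are the factors whose libraries separated by group. Each line gives the 100 bases before the RefSeq transcript start (GRCm38.p6), 5′ to 3′ on the gene's own strand, with matches to the 3 motifs described further on in capitals. The RefSeq start of Nob1 and of Lsg1 lies a few bases inside the deposited locus.
Utp15, chr13:98262993-98263092, minus strand: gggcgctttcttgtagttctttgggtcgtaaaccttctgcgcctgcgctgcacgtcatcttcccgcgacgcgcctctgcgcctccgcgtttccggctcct
Wdr43, chr17:71616115-71616214, plus strand: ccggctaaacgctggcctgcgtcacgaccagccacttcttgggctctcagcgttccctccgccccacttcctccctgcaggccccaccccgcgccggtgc
Utp18, chr11:93885767-93885866, minus strand: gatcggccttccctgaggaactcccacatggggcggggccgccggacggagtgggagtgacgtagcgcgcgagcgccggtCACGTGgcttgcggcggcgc
Nhp2l1, chr15:82047599-82047698, minus strand: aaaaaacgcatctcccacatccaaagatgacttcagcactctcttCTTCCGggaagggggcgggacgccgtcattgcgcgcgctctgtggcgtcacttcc
Nob1, chr8:107425039-107425138, minus strand: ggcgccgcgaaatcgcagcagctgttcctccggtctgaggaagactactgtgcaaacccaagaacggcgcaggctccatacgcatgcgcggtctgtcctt
Lsg1, chr16:30587590-30587689, minus strand: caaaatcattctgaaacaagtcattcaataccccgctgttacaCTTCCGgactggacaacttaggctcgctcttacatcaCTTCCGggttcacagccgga
Utp18 holds CACGTG, the E-box that Myc and Max are known to bind, Nhp2l1 holds 1 copy and Lsg1 holds 2 copies of CTTCCG, the complement of the CGGAAG core bound by ETS proteins. The stretches of Utp15, Wdr43 and Nob1 hold none of the 3 motifs, so no motif is shared by all 6 stretches. In the 250 bases searched further on, Utp15 holds CCAAT and Utp18 holds all 3 motifs, while Wdr43 and Nob1 hold none.

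The UTP-A complex, also called t-UTP, binds the start of the precursor RNA, and in human cells it is also linked to its transcription. All 5 members were tested, all 5 were above 0, and their median log2 fold change of 0.76 was the highest of the 11 roles in this fit. With counted gene length as a covariate it was 0.52, below RNase MRP and P at 0.66 and box H/ACA at 0.58, and without DSS 2, DSS 3 and DSS+CA 3 it was 0.59, below box H/ACA at 0.61. Utp15 (ENSMUSG00000041747, chr13:98246845-98262992 on GRCm38, as all loci here), a WD-repeat scaffold subunit, had 30.3, 27.2, 29.2 and 27.1 CPM in the 4 DSS+CA libraries, against 17.2, 16.7, 11.4 and 15.4 CPM in the 4 DSS libraries. The groups were well apart, with the lowest DSS+CA library above the highest DSS library. Its log2 fold change was 0.90 ± 0.26 (SE), a fold of 1.87, with an adjusted p of 0.240 in edgeR's test. Cirh1a (ENSMUSG00000041438, chr8:106893640-106923093), known as Utp4, had 24.7, 23.3, 11.4 and 32.6 CPM in DSS+CA and 14.7, 10.6, 12.03 and 14.1 CPM in DSS. DSS+CA 3 fell inside the DSS range while the other 3 DSS+CA libraries were above it, and the log2 fold change was 0.84 ± 0.34 (SE, edgeR adjusted p 0.523). Without DSS+CA 3 it was 1.06 (edgeR adjusted p 0.112).

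Heatr1, the largest UTP-A subunit and known as Utp10, had 44.7, 30.2, 13.2 and 28.8 CPM in DSS+CA and 27.2, 13.7, 10.5 and 17.6 CPM in DSS. DSS+CA 3 was again the low library of its group, DSS 1 the high one of the other, and the groups overlapped (log2 fold change 0.76 ± 0.41, SE). With counted gene length as a covariate Heatr1 was at 0.28. Wdr43, known as Utp5, had 40.4, 43.7, 38.4 and 40.9 CPM in DSS+CA and 29.4, 36.4, 16.02 and 30.2 CPM in DSS. Its DSS+CA libraries were close together and DSS 2 came nearest to them, with a log2 fold change of 0.54 ± 0.29 (SE, edgeR adjusted p 0.747). Wdr75, known as Utp17, gave 0.22 ± 0.36 (SE) with overlapping groups, and -0.04 without DSS+CA 3. It was 0.34 without DSS 2, DSS 3 and DSS+CA 3, and 0.52 with the length covariate. Summed over the 5 genes, the DSS+CA libraries held 132 to 161 CPM and the DSS libraries 69.3 to 116 CPM, which did not overlap. As CPM without scaling, the sums were 98.2 to 210 in DSS+CA and 57.8 to 127 in DSS, which overlapped through DSS+CA 3.

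UTP-B joins UTP-A on the nascent precursor and is formed mainly by WD-repeat proteins. All 6 members were above 0 with a median of 0.45. The median was 0.32 with counted gene length as a covariate, and 0.46 without DSS 2, DSS 3 and DSS+CA 3. Utp18 (ENSMUSG00000054079, chr11:93859243-93885766) had 17.8, 19.3, 17.9 and 20.2 CPM in DSS+CA and 12.5, 8.97, 11.2 and 12.8 CPM in DSS, so the groups were apart and each was tight. Its log2 fold change was 0.73 ± 0.26 (SE, edgeR adjusted p 0.417). Wdr36 (ENSMUSG00000038299, chr18:32837225-32866420), known as Utp21, had 40.9, 44.0, 52.1 and 41.2 CPM in DSS+CA and 25.3, 36.4, 18.7 and 28.3 CPM in DSS. The highest DSS library, DSS 2, stayed below the lowest DSS+CA library, and the log2 fold change was 0.71 ± 0.28 (SE, edgeR adjusted p 0.502). Wdr36 shares exon bases with 4930455D15Rik on the opposite strand, as Heatr1 does with Lgals8 and Wdr43 with CT010429.2, and 30 of the 76 factors share bases with some gene in GENCODE M21. No source used here gives the strand setting of the counting.

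The other UTP-B members, Tbl3, Wdr3, Pwp2 and Utp6, had log2 fold changes of 0.55, 0.35, 0.24 and 0.21, each with overlapping groups. Tbl3 had 25.1, 25.02, 12.9 and 28.3 CPM in DSS+CA and 12.4, 6.34, 28.1 and 15.8 CPM in DSS, with DSS+CA 3 low and DSS 3 high against their groups. Without DSS 2, DSS 3 and DSS+CA 3, Tbl3 rose by a log2 fold change of 0.86 (edgeR adjusted p 0.0429). That fit called 6.61% of all tested genes, against 0.131% in the main fit. Pwp2 averaged 14.4 ± 4.0 CPM in DSS+CA and 12.2 ± 3.4 CPM in DSS (SD, n = 4 each), a difference within the spread. The summed UTP-B level was 140 to 167 CPM in DSS+CA and 100 to 131 CPM in DSS, without overlap, and it overlapped as CPM without scaling (104 to 217 in DSS+CA and 83.5 to 140 in DSS).

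The MPP10 complex, UTP-C and casein kinase 2 complete the core of the particle, and their 8 tested members were all above 0. Medians were 0.29 for the 3 MPP10 proteins and 0.40 for the 5 members of UTP-C and casein kinase 2. With counted gene length as a covariate they were 0.43 and 0.13, and without DSS 2, DSS 3 and DSS+CA 3 they were 0.46 and 0.41. Imp4, an RNA-binding MPP10 partner, had 50.0, 47.8, 42.3 and 48.8 CPM in DSS+CA and 32.5, 27.2, 44.5 and 34.7 CPM in DSS. Only DSS 3 reached into the DSS+CA range (log2 fold change 0.45 ± 0.26, SE, edgeR adjusted p 0.787). Imp3, its partner protein, gave 0.21 ± 0.29 (SE).

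Mphosph10, the scaffold of that complex, had 15.2, 29.3, 86.0 and 21.5 CPM in DSS+CA and 14.0, 57.6, 24.9 and 27.8 CPM in DSS. DSS+CA 3 was far above its group and DSS 2 above the other, the fitted log2 fold change was 0.29 ± 0.57 (SE), and without DSS+CA 3 it was -0.50. The same fold change was 0.05 without DSS 2, DSS 3 and DSS+CA 3, and 0.72 with counted gene length as a covariate. Nol6, the UTP-C subunit known as Utp22, had 37.2, 24.9, 10.3 and 27.3 CPM in DSS+CA and 20.6, 6.86, 16.8 and 17.4 CPM in DSS, with DSS+CA 3 and DSS 2 low in their groups (0.70 ± 0.43, SE). Of the kinase subunits, Csnk2a2 gave 0.40 ± 0.31 and the regulatory subunit Csnk2b 0.45 ± 0.37 (SE), while Csnk2a1 was at 0.07 ± 0.29 (SE), and at -0.24 without DSS 2, DSS 3 and DSS+CA 3. With counted gene length as a covariate Nol6 was at 0.19, Csnk2a2 at 0.13, Csnk2b at 0.09 and Csnk2a1 at -0.04. None of these differences passed the edgeR test.

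Other factors of the small subunit act as enzymes on the precursor or on the late particle. All 10 tested were above 0, from 0.04 to 0.52, with a median of 0.29. Without DSS+CA 3, Ak6, Fcf1, Utp14a and Emg1 were below 0 and the median was 0.19. The median was 0.30 without DSS 2, DSS 3 and DSS+CA 3, and 0.39 with counted gene length as a covariate. Nob1 (ENSMUSG00000003848, chr8:107412486-107425051), the endonuclease that makes the final cut at the end of the small-subunit RNA, had 22.2, 25.02, 19.5 and 27.2 CPM in DSS+CA and 14.8, 16.1, 18.4 and 16.3 CPM in DSS. Its groups did not overlap, with DSS+CA 3 and DSS 3 nearest to each other. The log2 fold change was 0.52 ± 0.26 (SE, edgeR adjusted p 0.693). Tcof1, the nucleolar protein treacle that acts with RNA polymerase I, averaged 23.1 ± 8.7 CPM in DSS+CA and 17.1 ± 4.8 CPM in DSS (SD, n = 4 each). Nat10, the RNA acetyltransferase, averaged 21.5 ± 7.3 CPM in DSS+CA and 16.0 ± 5.1 CPM in DSS (SD, n = 4 each). Both overlapped between the groups, with log2 fold changes of 0.43. With counted gene length as a covariate each was at 0.08.

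Bms1, a GTPase that works with the RNA cyclase-like Rcl1, gave 0.22 ± 0.34 (SE), and without DSS 3, its lowest library at 11.1 CPM, it was -0.02. Rcl1 gave 0.26 and the kinase-like Riok1 gave 0.33. The methyltransferase Emg1 and Utp14a were at 0.08 and 0.06, and the endonuclease Fcf1 at 0.04. Without DSS+CA 3, Emg1 was at -0.05, Utp14a at -0.14 and Fcf1 at -0.84. They were at 0.37, 0.29 and 0.09 without DSS 2, DSS 3 and DSS+CA 3, and at 0.38, 0.41 and 0.70 with the length covariate. Ak6, an ATPase of the late small subunit, was the most variable of these, at 56.2, 85.0, 395 and 77.4 CPM in DSS+CA and 38.5, 180, 184 and 89.3 CPM in DSS. Its high libraries were DSS+CA 3, DSS 2 and DSS 3, those with the shortest counted genes. Its log2 fold change of 0.32 became -0.75 without DSS+CA 3, and 0.17 without DSS 2, DSS 3 and DSS+CA 3. With the mean counted gene length as a covariate in the fit, Ak6 rose by 0.89 (edgeR adjusted p 0.0359). That fit called 6.23% of all tested genes. Ak6 shares exon bases with Taf9 on the same strand, so reads at those bases cannot be assigned to either.

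The box C/D particles place ribose methyl groups on the precursor, guided by small nucleolar RNAs. All 4 tested proteins were above 0, with a median of 0.22. Nhp2l1 (ENSMUSG00000063480, chr15:82041319-82047598), also called Snu13 and also a part of the spliceosome, had 70.8, 74.2, 75.1 and 75.0 CPM in DSS+CA and 32.4, 60.9, 65.3 and 42.5 CPM in DSS. The DSS+CA values were the tightest of the 67 tested factors, with a coefficient of variation of 2.77%, and all lay above the more scattered DSS values. Its log2 fold change was 0.55 ± 0.29 (SE, edgeR adjusted p 0.727). Without DSS 2, DSS 3 and DSS+CA 3, Nhp2l1 rose by 0.94 (edgeR adjusted p 0.0295). DSS 2 and DSS 3 were its highest DSS libraries, and that fit called 6.61% of all tested genes.

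Fbl, the methyltransferase fibrillarin, had 58.4, 51.3, 49.3 and 56.6 CPM in DSS+CA and 34.8, 57.2, 59.3 and 37.8 CPM in DSS. DSS 2 and DSS 3 matched the DSS+CA libraries while DSS 1 and DSS 4 lay below them, and the log2 fold change was 0.19 ± 0.28 (SE). Nop56, a core scaffold, gave 0.24 ± 0.28 (SE). Nop58, its partner, had 46.2, 80.4, 152 and 58.2 CPM in DSS+CA and 44.2, 147, 46.6 and 80.1 CPM in DSS, which is 1 high library in each group and no visible shift (0.08 ± 0.47, SE, and -0.37 without DSS+CA 3). Nop56 and Nop58 share exon bases with small nucleolar RNAs encoded in the same loci, so reads at those bases cannot be assigned to either.

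The box H/ACA particles convert uridines to pseudouridine, and their 4 proteins had a median of 0.28, which was -0.08 without DSS+CA 3. The median was 0.61 without DSS 2, DSS 3 and DSS+CA 3, and 0.58 with counted gene length as a covariate. Gar1 had 15.7, 23.9, 15.6 and 14.7 CPM in DSS+CA and 11.3, 11.7, 16.4 and 12.8 CPM in DSS. DSS+CA 2 was high and DSS 3 overlapped the DSS+CA group (0.42 ± 0.29, SE, edgeR adjusted p 0.869). Nop10 gave 0.32 ± 0.38 and Nhp2 0.23 ± 0.52 (SE). Dkc1, the pseudouridine synthase dyskerin, had 27.6, 27.7, 59.95 and 30.1 CPM in DSS+CA and 22.1, 69.0, 15.3 and 31.6 CPM in DSS. Each group had 1 high library, DSS+CA 3 and DSS 2, and the log2 fold change was 0.07 ± 0.47 (SE). Without DSS+CA 3, Dkc1 was at -0.28 and Nhp2 at -0.20. They were at 0.06 and 0.77 without DSS 2, DSS 3 and DSS+CA 3, and at 0.38 and 0.98 with the length covariate.

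RNase MRP and RNase P share most of their proteins, and the first cuts the ribosomal precursor. The 6 tested members lay between 0.17 and 0.36, with a median of 0.26 that was 0.02 without DSS+CA 3. The median was 0.44 without DSS 2, DSS 3 and DSS+CA 3, and 0.66 with counted gene length as a covariate. Rpp25l had 10.1, 10.3, 2.93 and 11.3 CPM in DSS+CA and 7.78, 3.997, 8.95 and 6.47 CPM in DSS, with DSS+CA 3 the lowest of all 8 libraries (0.36 ± 0.43, SE). Pop5 averaged 13.6 ± 2.6 CPM in DSS+CA and 11.1 ± 5.4 CPM in DSS (SD, n = 4 each). The groups also overlapped for Pop7, Pop4, Rpp38 and Rpp30. Without DSS+CA 3, Pop4 turned to -0.02, Rpp38 to -0.65 and Rpp30 to -0.57. They were at 0.23, 0.23 and 0.35 without DSS 2, DSS 3 and DSS+CA 3, and at 0.49, 0.78 and 0.84 with the length covariate.

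The large-subunit factors had 11 of 12 members above 0 and a median of 0.34, which was 0.13 without DSS+CA 3. The median was 0.345 without DSS 2, DSS 3 and DSS+CA 3, and 0.44 with counted gene length as a covariate. Gnl3l (chrX:150983141-151017322), a nucleolar GTPase related to nucleostemin, had 35.1, 35.6, 22.3 and 33.7 CPM in DSS+CA and 26.2, 18.9, 17.4 and 20.5 CPM in DSS. DSS 1 exceeded DSS+CA 3, and the other 3 libraries of each group were apart (0.61 ± 0.28, SE, edgeR adjusted p 0.636). Lsg1 (ENSMUSG00000022538, chr16:30560494-30587592), the cytosolic GTPase that releases the export adaptor Nmd3, had 25.7, 23.1, 26.0 and 19.99 CPM in DSS+CA and 15.9, 19.2, 14.3 and 19.6 CPM in DSS. The groups did not overlap, but DSS+CA 4 and DSS 4 lay next to each other (0.46 ± 0.26, SE, edgeR adjusted p 0.764).

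Eftud1, known as Efl1, is the GTPase that works with Sbds to remove Eif6 from the new large subunit. These 3 genes of a single step had different values. Eftud1 had 49.8, 43.7, 30.5 and 41.8 CPM in DSS+CA and 33.0, 29.2, 16.2 and 31.5 CPM in DSS, with only DSS+CA 3 inside the DSS range (0.59 ± 0.30, SE). Sbds had 57.9, 70.3, 144 and 67.0 CPM in DSS+CA and 62.2, 168, 114 and 89.1 CPM in DSS. DSS+CA 3 was high, DSS 2 higher still, and the log2 fold change of -0.35 ± 0.39 (SE) was the only one below 0 in this role. Eif6 had 199, 278, 268 and 258 CPM in DSS+CA and 143, 165, 415 and 186 CPM in DSS, with 3 DSS libraries below the DSS+CA group and DSS 3 above it (0.14 ± 0.37, SE). Whether the 3 differ from each other in their response was not tested.

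The remaining large-subunit factors overlapped between the groups. Spata5, an AAA ATPase of the cytosolic stage, gave 0.56 ± 0.30 (SE) at low levels of 9.47 ± 1.8 CPM in DSS+CA and 6.43 ± 1.1 CPM in DSS (SD, n = 4 each). The GTPases Gtpbp4, Gnl2 and Gnl3 gave 0.45, 0.32 and 0.29, and without DSS+CA 3 Gnl2 was at -0.05 and Gnl3, nucleostemin, at -0.06. Gnl2 and Gnl3 were at 0.31 and 0.34 without DSS 2, DSS 3 and DSS+CA 3, and at 0.67 and 0.63 with the length covariate. Rbm28 gave 0.36 and the ATPase Nvl 0.19. Nmd3 had 26.5, 40.1, 172 and 43.8 CPM in DSS+CA and 20.9, 99.7, 60.5 and 43.6 CPM in DSS. Its log2 fold change of 0.33 was -0.61 without DSS+CA 3 and 0.17 without DSS 2, DSS 3 and DSS+CA 3. With counted gene length as a covariate it was 0.84 (edgeR adjusted p 0.051).

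Nuclear export held 3 of the 6 factors below 0. Its 6 tested members had a median of 0.03, with 3 above 0 and 3 below. Ran, the GTPase that drives transport through the nuclear pore, had 173, 217, 229 and 216 CPM in DSS+CA and 102, 171, 231 and 153 CPM in DSS. DSS 3 was slightly above every DSS+CA library, and the other DSS libraries were below every one (0.35 ± 0.31, SE). Xpo1, the exportin that carries both subunits out, gave 0.21 ± 0.34 (SE), and -0.09 without DSS+CA 3. Nxf7, an X-linked relative of the mRNA export factor Nxf1, had 1.78, 1.75, 7.18 and 2.53 CPM in DSS+CA and 4.28, 9.58, 4.66 and 6.799 CPM in DSS. All DSS+CA libraries except DSS+CA 3 were below every DSS library (-0.96 ± 0.51, SE, edgeR adjusted p 0.737). Without DSS 2, DSS 3 and DSS+CA 3, Nxf7 fell by 1.48 on the log2 scale (edgeR adjusted p 0.0450). That fit called 4.25% of all tested genes lower. Nxf1 was at 0.16, and its cofactors Nxt1 and Nxt2 were at -0.09 and -0.25. Without the same 3 libraries Nxf1 was at -0.01, Nxt1 at 0.15 and Xpo1 at -0.29.

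Among the nucleases, 4 of 5 tested were above 0. Their median was 0.20, and -0.18 with counted gene length as a covariate. Xrn2, the nuclear exonuclease that trims precursor ends, averaged 69.2 ± 4.9 CPM in DSS+CA and 60.2 ± 15 CPM in DSS (SD, n = 4 each). Xrn1, its cytoplasmic counterpart, had 25.9, 22.8, 20.9 and 21.6 CPM in DSS+CA and 55.9, 16.3, 11.6 and 28.6 CPM in DSS. The DSS+CA libraries were even while DSS 1 was high, and the log2 fold change of -0.30 ± 0.44 (SE) became 0.27 without DSS 1. The fold change was -0.89 without DSS 2, DSS 3 and DSS+CA 3 (edgeR adjusted p 0.108), and -0.43 with counted gene length as a covariate. Drosha, the endonuclease best known for microRNA precursors, gave 0.20 ± 0.38 (SE). Rexo1 gave 0.22, and -0.18 with counted gene length as a covariate. Rexo2 gave 0.34, but -0.38 without DSS+CA 3 and 0.90 with the covariate.

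The list also holds genes that were low or absent in these crypts. Rasl2-9, annotated in the tables as a copy of Ran, had 0.05, 0.69, 2.63 and 0.32 CPM in DSS+CA and 0.30, 1.74, 2.11 and 1.06 CPM in DSS, too low and scattered to compare (-0.59 ± 0.88, SE). Nxf2, Nxf3, Fbll1 and 1700009N14Rik had 0 counts in all 8 libraries. Below the filter, Pop1, the largest protein of RNase MRP, had 172, 142, 39 and 180 counts in DSS+CA and 64, 49, 53 and 73 counts in DSS. DSS+CA 3 had the fewest counts of the 8 libraries and, at 3.94 scaled CPM, lay within the 3.695 to 4.07 CPM of DSS. The fit without a filter gave a log2 fold change of 1.09 (edgeR adjusted p 0.314). Rpp25 summed to 76 counts in DSS+CA and 35 in DSS, Rpp40 to 317 in DSS+CA and 209 in DSS, and Utp14b to 427 in DSS+CA and 334 in DSS. The exonuclease gene 2610020H08Rik had 67, 37, 38 and 48 counts in DSS+CA and 81, 88, 54 and 100 counts in DSS. After scaling, all of its DSS+CA libraries were below all DSS libraries (-0.72, edgeR adjusted p 0.614 without a filter).

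**Figure D3:**
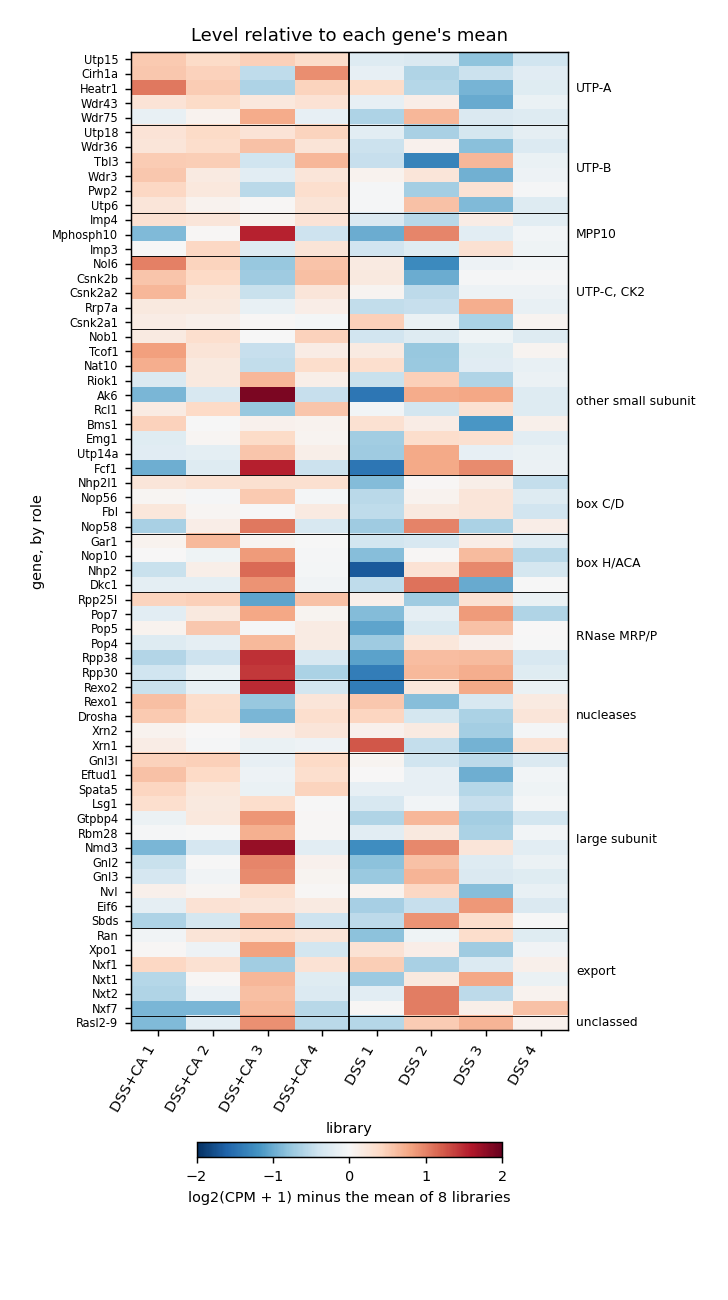
Level of the 67 tested ribosome biogenesis factors (rows, by role) in each library (columns, DSS+CA left of DSS). Colour is log2(CPM + 1) minus the gene's mean over the 8 libraries, red above and blue below. Within DSS+CA the third library departs from the other 3 in both directions, with high values for Ak6, Nmd3 and Mphosph10 and low values for Nol6 and Rpp25l.

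The libraries of a group differed among themselves, and in several libraries of both groups the differences went with gene length. DSS+CA 3 was the highest library of its group for 33 of the 67 factors and the lowest for 27, and over all tested genes it was the highest for 41.5% and the lowest for 46.5%. The median gene length was 3509 bases where it was highest and 5903 bases where it was lowest. In DSS, DSS 3 was the highest library for 25 factors with a median length of 1869 bases and the lowest for 22 with a median of 6015 bases. For DSS 2 the medians were close, 4702 bases where it was highest and 4977 bases where it was lowest. DSS+CA 4 had medians of 4298 and 7866 bases, over 10 and 9 factors. In DSS+CA 1 and DSS 1 the order was the opposite, with longer factors where the library was highest. These medians were 6580 and 3509 bases for DSS+CA 1, and 6537 and 3113 bases for DSS 1. DSS 1 was the lowest of its group for 31 factors, which is 46.3%, against 31.1% of all tested genes. The coefficient of variation of a factor over 4 libraries had a median of 31.4% in DSS+CA and 35.1% in DSS. Without DSS+CA 3, 44 of the 67 factors were above 0, which is 65.7%, against 49.1% of all tested genes, and the median log2 fold change was 0.20 against -0.01. The 17 factors that turned all went from above 0 to below it. That fit keeps DSS 2 and DSS 3, the other libraries with the shortest counted genes. Of the 17, only Nop58 and Xpo1 also turned without DSS 2, DSS 3 and DSS+CA 3, and none did with counted gene length as a covariate. Without DSS 2, DSS 3 and DSS+CA 3, the share above 0 was 85.1% against 50.3%, and the median was 0.35 against 0.00412. That fit called 3 factors, Nhp2l1, Tbl3 and Nxf7, where it called 6.61% of all tested genes, 2.36% higher and 4.25% lower. With counted gene length as a covariate the calls were 2, Utp15 and Ak6, both higher, beside 6.23% of all tested genes, 2.97% higher and 3.27% lower.

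Summed over the 76 genes, the ribosome biogenesis factors had 3324, 3239, 2795 and 3167 CPM without scaling in the DSS+CA libraries and 2405, 2117, 2333 and 2299 in the DSS libraries. Every DSS+CA library was above every DSS library on this scale. After TMM scaling the sums were 2555, 2782, 3767 and 2723 CPM in DSS+CA and 1957, 2870, 2798 and 2271 CPM in DSS, and the groups overlapped. DSS+CA 3 moved from the lowest of its group to the highest, since its TMM factor was 0.74 and those of the other DSS+CA libraries were 1.16 to 1.30. Separation of the summed level therefore depended on the scaling, and so did that of the roles. The UTP-A and UTP-B sums separated only after TMM scaling, and the sums of MPP10, RNase MRP and P, box C/D, large-subunit and other small-subunit factors only without scaling.

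**Figure D4:**
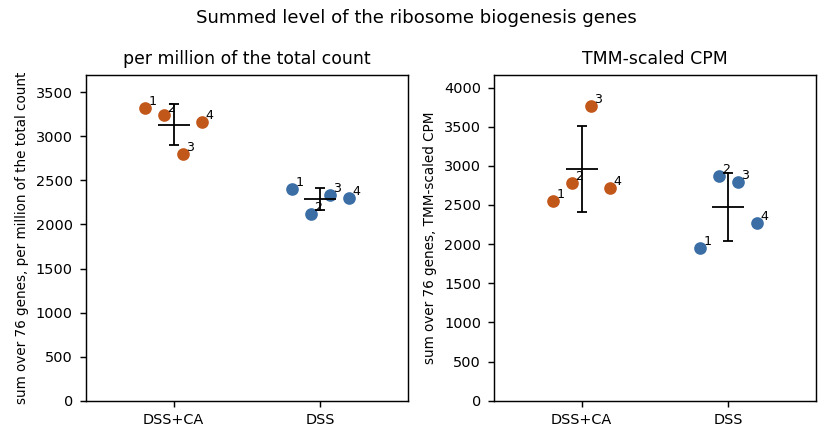
Summed level of the 76 ribosome biogenesis genes in each library, as CPM without scaling, from the total count alone (left panel) and as TMM-scaled CPM (right panel), y axes from 0. Points are libraries labelled by replicate number, and bars are mean and SD (n = 4 each). On the left the DSS+CA libraries, 2795 to 3324, all lie above the DSS libraries, 2117 to 2405, and on the right the groups overlap.

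Per length, the factors covered a wide range of levels. By mean FPKM over the 8 libraries, Ran was highest at 65.4, followed by Eif6 at 58.7, Nop10 at 47.3, Nhp2 at 46.4 and Fbl at 44.3. FPKM divides by a fixed length per gene, which for some genes exceeds the locus, so their FPKM and its ranks are uncertain. The tested factor with the lowest mean FPKM was Rasl2-9 at 0.95. The median of the 67 was 6.35, near the 5.39 of all tested genes. Utp15 was close to that median, at 7.63 FPKM in DSS+CA and 3.60 FPKM in DSS, and none of the 7 factors that separated was among the 5 most abundant.

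Other genes of ribosome production, outside the KEGG assignment, were read from lists of known factors. Of 59 other assembly factors tested, 52 were above 0 with a median of 0.45, and none was called. Rsl24d1, a large-subunit factor that Spata5 is known to release in its yeast form, had 16.1, 16.01, 11.1 and 16.7 CPM in DSS+CA and 9.16, 6.79, 7.60 and 6.69 CPM in DSS, without overlap (0.99 ± 0.28, SE, edgeR adjusted p 0.232). Nol11, which binds the UTP-A complex in human cells, had 24.4, 24.7, 20.7 and 22.6 CPM in DSS+CA and 12.9, 12.7, 11.7 and 13.8 CPM in DSS, also without overlap (0.85 ± 0.25, SE, edgeR adjusted p 0.248). These 2 had fold changes near that of Utp15. Of the 17 tested factors with a role in the same complexes but without the KEGG assignment, 15 were above 0 with a median of 0.33, and the largest log2 fold change was that of Rpf2 at 0.81. Nop14, at 0.54, had the smallest unadjusted p of that list.

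RNA polymerase I and its factors had 17 of 21 genes above 0 but a median of only 0.11, led by the initiation factor Rrn3 at 0.80 (edgeR adjusted p 0.669) and the shared subunit Polr2l at 0.69. The RNA exosome had 10 of 14 above 0 with a median of 0.08. Translation start factors had 12 of 14 above 0 with a median of 0.49, and Eif2b3, a subunit of the exchange factor of initiation factor eIF2, gave 1.04 ± 0.32 (SE, edgeR adjusted p 0.280). Of the growth regulators, 5 of 9 were above 0. Myc, a transcription factor known to drive ribosome production, gave 0.45 ± 0.31 (SE) with overlapping groups. Mxd1, which competes with Myc for Max, had 284, 297, 209 and 264 CPM in DSS+CA and 553, 464, 435 and 491 CPM in DSS, so every DSS+CA library was lower (-0.88 ± 0.28, SE, edgeR adjusted p 0.297). Max was lower as well in every DSS+CA library, at -0.36 (edgeR adjusted p 0.882). No gene of these lists passed the test, and differences between the lists and the ribosome biogenesis factors were not tested.

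**Figure D5:**
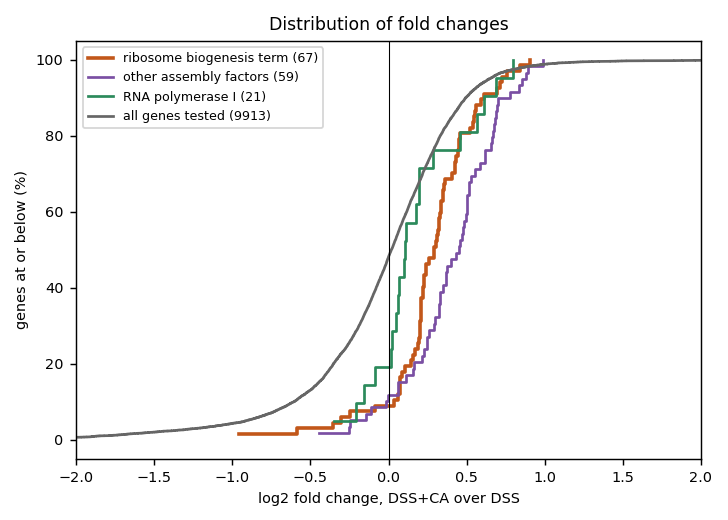
Cumulative share of genes (y axis, percent) at or below each log2 fold change, DSS+CA over DSS (x axis), for the 67 tested ribosome biogenesis factors, 59 other assembly factors, 21 genes of RNA polymerase I and its factors and all 9913 tested genes. The lines of both factor lists lie to the right of the line for all genes through most of the range, with medians of 0.29 and 0.45 against 0.02, while RNA polymerase I has a median of 0.11.

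Marker levels of the cell types that a crypt preparation can hold were compared as well. In bulk RNA, fewer cells of a type and less RNA per cell cannot be told apart. Markers of crypt stem and transit cells, where ribosome production is known to be high, summed to 764 to 1152 CPM in DSS+CA and 807 to 2122 CPM in DSS, with 6 of 11 tested above 0 and a median of 0.03. Lgr5, a stem cell marker of that list, was below the filter and not tested. It had 1.21 to 3.87 CPM in DSS+CA and 3.54 to 11.4 CPM in DSS. Among the tested genes of that list, Olfm4 was at -0.88, Ascl2 at -0.37 and Smoc2 at 0.14 on the log2 scale. Goblet and Paneth cell markers had 6 of 6 below 0, with 5447 to 11290 CPM in DSS+CA and 9350 to 20960 CPM in DSS. T and NK cell markers had 9 of 9 below 0, with 115 to 1117 CPM in DSS+CA and 546 to 2025 CPM in DSS. B and plasma cell markers summed to 13.6 to 27.9 CPM in DSS+CA and 53.6 to 81.4 CPM in DSS, with 4 of 4 tested below 0. Enterocyte markers summed to 31260 to 112400 CPM in DSS+CA and 28500 to 101300 CPM in DSS. Myeloid markers summed to 17.3 to 47.9 CPM in DSS+CA and 34.9 to 155 CPM in DSS, and those of fibroblasts, endothelium and muscle to 1.24 to 1.62 CPM in DSS+CA and 1.95 to 9.83 CPM in DSS. No marker of these lists passed the test and none was at 0 in all libraries, and their part in the values of the ribosome biogenesis factors was not tested.

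Promoters of the factors were read from RefSeq (GRCm38.p6), whose table held 72 windows for 63 of the 76 genes. The 250 bases before each start were searched on both strands for CACGTG, which reads the same on both strands, for CGGAAG and its complement CTTCCG, and for CCAAT, the site of NF-Y, and its complement ATTGG. A window counted once however many matches it held, overlapping ones included. CGGAAG was in 24 of the 62 windows of tested factors, which is 38.7%, against 26.8% of the windows of all tested genes and 13.6% of all windows. CACGTG was in 7 of 62, which is 11.3%, against 8.69% and 6.02%. CCAAT was in 21 of 62, which is 33.9%, against 36.2% and 33.8%. These shares are a description, and a match is neither a measured site nor a cause.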

How the data were processed

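Crypt RNA of 8 libraries, 4 DSS+CA and 4 DSS, was sequenced from 200 ng of total RNA each, with a TruSeq Stranded Total RNA kit, per the labels' protocols. The authors deposited, per library, a whole-number count and an FPKM per gene, per the file headers. The submitters' processing notes name HISAT2 and StringTie, with no version, and the build GRCm38 (mm10). No source used here gives the counting tool, its annotation or strand setting. The deposited FPKM equalled the count per total count and per a fixed gene length within 1% for 17718 of 17718 genes with counts in 2 or more libraries. This implied length is not a transcript length for every gene. For Nop56 it was 15263 bases, longer than its locus, chr2:130274430-130279313. No 2 libraries were identical (0 of 28 pairs).

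Genes with FPKM of at least 1 in at least 4 of 8 libraries (9913) were tested on counts with edgeR 4.0.16 (R 4.3.3, limma 3.58.1), using quasi-likelihood, TMM scaling and group as the only term, two-sided, Benjamini-Hochberg adjusted, threshold 0.05. The common biological coefficient of variation was 0.416. The SE is the log2 fold change over the root of F. The fit was tested on simulated data. Alternatives were DESeq2 1.42.0, its size factors, other filters, limma on log2(FPKM + 1), a replicate block, counted gene length as a covariate and left-out libraries.

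The KEGG term, the roles and the lists were chosen with earlier results of these data known. Named were, per role, the 2 smallest p-values, the non-overlapping and the most abundant members and a fixed set. Lsg1 and the members outside this rule were named after their values were seen.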

Additional observations from a re-analysis of the deposited data

Results flagged for a closer look

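Of the 38 factors chosen by rule, each with 2 groups of 4 libraries, 9 of 76 groups (11.8%) held 1 library whose gap to the nearest other passed Dixon's critical ratio for 4 values. For independent groups of normally distributed values, chance gives about 1 in 20. These groups share the same 8 libraries and are not independent, so setting 11.8% against that rate is no test. In DSS+CA 3 the scaled level was high for Nop56 at 63.0 CPM, Nop10 at 91.5 CPM, Dkc1 at 59.95 CPM, Sbds at 144 CPM and Nxf7 at 7.18 CPM. The same library was low for Rpp25l at 2.93 CPM and for Gnl3l at 22.3 CPM. The other 2 were Gar1 in DSS+CA 2, at 23.9 CPM, and Eif6 in DSS 3, at 415 CPM. DSS+CA 3 and DSS 3 were among the 3 libraries with the shortest counted genes. Of the genes high in DSS+CA 3, Nop56 had an implied length of 15263 bases, Nop10 1109, Dkc1 5844, Sbds 3074 and Nxf7 3045. Of those low there, Rpp25l had 856 bases and Gnl3l 6503. Whether gene length accounts for the outlying levels was not tested.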

How the results depend on the processing

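Utp15 had the smallest adjusted p, and no ribosome biogenesis factor was called in edgeR's main fit, with DESeq2, DESeq2 size factors, no filter, filterByExpr, limma on FPKM, the replicate block or any single library left out (0 in each). The 2 calls with counted gene length as a covariate and the 3 calls without DSS 2, DSS 3 and DSS+CA 3 came from fits that also called more of all tested genes, and the cause was not tested. Factors above 0 numbered 57 to 65 under the other alternatives and 44 to 62 with 1 library left out. The median log2 fold change was 0.25 to 0.41 under the other alternatives and 0.20 to 0.38 with 1 library left out. In limma on FPKM the median of all genes shifted to 0.17 and that of the factors was 0.41. Factors with every DSS+CA library above every DSS library numbered 35 without those 3 libraries, with fewer libraries to separate.

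Of the 67 tested factors, 9 turned direction with the length covariate, 6 without the 3 libraries and 17 without DSS+CA 3. Among the 38 named by rule, these were Rpp25l (-0.036), Rasl2-9 (0.14), Sbds (0.024) and Drosha (-0.22) with the length covariate, and Nop58 (-0.036), Bms1 (-0.047) and Xpo1 (-0.29) without the 3 libraries. Among those 38 with 1 library left out, the lowest and highest values were -0.56 and 0.27 for Xrn1, -0.026 and 0.61 for Eif6, -0.20 and 0.70 for Nhp2, -0.37 and 0.56 for Nop58, -0.28 and 0.66 for Dkc1, -0.020 and 0.37 for Bms1, -0.50 and 0.77 for Mphosph10, -0.061 and 0.66 for Gnl3 and -0.094 and 0.35 for Xpo1.

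Replicate numbers are shared between the groups, but same-numbered libraries did not deviate together: correlations of their deviations were 0.75, -0.34, 0.11 and 0.20, and only DSS+CA 1 correlated best with its own number. With the replicate block, 0 factors were called, 60 were above 0 and the median was 0.29. Low depth leaves Rpp25, with 76 counts in DSS+CA and 35 in DSS, imprecise.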
